A study of Rattus norvegicus with 4 samples.

Results

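The genes described here are 8 members of the ZnT family, Slc30a2, Slc30a3, Slc30a4, Slc30a5, Slc30a6, Slc30a7, Slc30a9 and Slc30a10, chosen by their rat RefSeq symbols among 16526 named genes with a value on every array. Slc30a1, the ZnT gene of the plasma membrane, was left out of the set and serves as a point of comparison. Each of the 8 genes was read by 1 probe. The RNA came from NR8383, a macrophage line established by lavage of the lung of a normal rat. All 4 samples were biological replicates of 1 condition, exposure to the zinc iron oxide ZnFe2O4 (NRCWE021) at 17 µg/mL for 4 h, in cells labelled as 20 passages old. Each was hybridised to its own one-colour Agilent array (Cy3). As a continuous line kept in culture, NR8383 stands for the alveolar macrophage only in part. Unexposed cells are not analysed here, so no value below says whether a gene responded to the particle.

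ZnT proteins move zinc out of the cytosol, either across the plasma membrane or into organelles, and so act against the ZIP importers, which bring zinc into the cytosol. In the early secretory pathway, ZnT5 with ZnT6 as heterodimers and ZnT7 as homodimers deliver the zinc that secreted and membrane-bound enzymes such as alkaline phosphatases need. Other members load vesicles or serve mitochondria, and ZnT10 is known in humans and mice mainly as a manganese exporter. When cytosolic zinc is high, the factor MTF1 binds metal response elements (MREs) and turns on metallothioneins and Slc30a1.

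The promoters of 3 members are printed because they differ in the zinc-linked letters they hold. RefSeq windows of 250 bases upstream of the start (build GRCr8) were at hand for 6 of the 8 members. Slc30a7 and Slc30a10 had no entry. The windows were searched on both strands for the MRE core, TGCACNC or TGCGCNC. The second pattern was a palindrome, CACTCC followed within 0 to 4 bases by GGAGTG, which resembles an element described in the human SLC30A5 promoter as mediating repression by zinc and was chosen after the sequences had been seen. Capitals mark the matches, 5′ to 3′. The windows lie at chr2:33709899-33710148 for Slc30a5, chr3:130228889-130229138 for Slc30a4 and chr6:26802657-26802906 for Slc30a6, all on the minus strand.
Slc30a5: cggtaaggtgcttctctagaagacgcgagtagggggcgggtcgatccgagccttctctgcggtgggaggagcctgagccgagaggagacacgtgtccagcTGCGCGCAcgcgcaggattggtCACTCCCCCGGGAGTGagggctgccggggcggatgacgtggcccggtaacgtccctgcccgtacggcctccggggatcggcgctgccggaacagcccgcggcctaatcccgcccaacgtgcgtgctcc
Slc30a4: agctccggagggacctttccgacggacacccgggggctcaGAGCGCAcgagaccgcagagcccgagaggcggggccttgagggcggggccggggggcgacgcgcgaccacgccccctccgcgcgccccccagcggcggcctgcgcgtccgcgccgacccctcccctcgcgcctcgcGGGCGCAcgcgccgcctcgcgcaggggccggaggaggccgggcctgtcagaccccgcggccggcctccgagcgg
Slc30a6: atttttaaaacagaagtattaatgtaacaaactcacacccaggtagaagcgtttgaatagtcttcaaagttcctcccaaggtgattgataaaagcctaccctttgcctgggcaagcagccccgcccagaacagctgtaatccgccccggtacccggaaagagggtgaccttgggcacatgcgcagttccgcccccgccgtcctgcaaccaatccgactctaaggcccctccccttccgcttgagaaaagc

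The Slc30a5 window held 2 overlapping MRE core matches in 1 stretch, and downstream of it the palindrome. The Slc30a4 window held 2 separate MRE cores, as did the window of the first Slc30a2 start and that of Slc30a1. The second Slc30a2 start and the windows of Slc30a3, Slc30a6 and Slc30a9 held none. Among all 33469 rat promoter windows of the same length, 20.6% held an MRE core. The palindrome stood in 2 of them, that of Slc30a5 and that of Tmem171. These are matches of letters, and binding was not measured.

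The 4 arrays fell into pairs before any gene was considered. Of 58717 gene spots, 47.0% and 41.6% carried the software's flag for well above background on replicates 1 and 4, and 89.5% and 70.5% on replicates 2 and 3. The dimmest spike-in, an added control RNA, had median signals of 3.49 and 3.75 on replicates 1 and 4. On replicates 2 and 3 they were 554 and 115. This spike-in probe was chosen by its mean on replicates 1, 3 and 4, and need not be the dimmest on replicate 2. Its median signal was raised on replicates 2 and 3 and is called the floor below. It is no lower limit of signal there, since most negative controls and some member probes lay under it. Each member is given on every array with its place relative to that floor. The negative controls stayed low, with 95th percentiles of 4.16, 24.3, 17.6 and 4.61 on replicates 1 to 4. No gene spot was saturated. A lower bound was set by the software. Where a spot had no significant positive signal, the processed signal equalled its own error estimate within 1% in 97.5% to 100% of such spots, so that value is a placeholder and not a measured level. Of 15 measured markers of alveolar macrophages, 13 were well above background on all 4 arrays, against 42.4% of all named genes. Among the 13 were Cd68, Mrc1 and Spi1. Adgre1 was well above background on no array, and Marco only on replicates 2 and 3.

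Of the 8 members, 4 were well above background on all 4 arrays: Slc30a3, Slc30a6, Slc30a7 and Slc30a9. The same held for 42.4% of all named genes and for 38.5% of those read by 1 probe. On replicates 1 and 4 alone, Slc30a5 joined them, giving 5 of 8 members, against 45.9% of all named genes and 42.3% of those with 1 probe. Slc30a2 and Slc30a10 passed the limit on replicates 2 and 3 but missed it on replicates 1 and 4, a pattern shared by 27.7% of all named genes. Slc30a4 was well above background on no array, like 6.46% of all named genes. With 8 members, these counts lie near the shares of the whole array, and nothing particular to the family is read from them.

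Slc30a5, the larger partner of the ZnT5 and ZnT6 complex, had processed signals of 48.4, 209.6, 58.5 and 29.1 intensity units on replicates 1, 2, 3 and 4. The scanner software's error estimates were 6.08, 31.9, 15.0 and 4.54. It missed the limit for well above background on replicate 3 and passed it on the other arrays. Its signal was 13.9 and 7.75 times that of the dimmest spike-in on replicates 1 and 4, and 0.38 and 0.51 times on replicates 2 and 3. Its detection thus rests on replicates 1 and 4.

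Slc30a6, whose protein has no transport activity of its own and works as the partner of ZnT5, had 441 ± 44.3, 404 ± 47.0, 257 ± 29.8 and 207 ± 21.1 units on replicates 1 to 4 (± scanner error). The highest and the lowest of these signals were those of replicates 1 and 4, the arrays with a low floor. Slc30a6 stood at 126 and 55.2 times the dimmest spike-in on replicates 1 and 4, 2.22 times on replicate 3 and 0.73 times on replicate 2. Slc30a7, the homodimeric transporter of the Golgi, had 123 ± 12.7, 761 ± 79.5, 170.3 ± 21.1 and 54.2 ± 6.25 units. It was well above background on every array and exceeded the dimmest spike-in on each, by 35.2, 1.38, 1.47 and 14.4 times. All 3 genes of this secretory route were therefore detected on both arrays with a low floor. Of 6 zinc enzymes that mature in that route, Enpp3, Nt5e, Car9 and Smpd1 were well above background on all 4 arrays. Alpl, an alkaline phosphatase, and Enpp1 passed only on replicates 2 and 3. Among all named genes, 42.4% passed on all 4 arrays and 45.9% on replicates 1 and 4. With so few genes, nothing particular to this route is read from these counts.

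Slc30a9, which in human cells encodes a mitochondrial zinc exporter, had 32.0 ± 5.58, 580.3 ± 62.1, 73.2 ± 15.4 and 25.5 ± 4.36 units on replicates 1 to 4. Replicate 2 stood far above the other 3 arrays. The probe was well above background on all of them, at 9.17 and 6.80 times the dimmest spike-in on replicates 1 and 4 and 1.05 and 0.63 times on replicates 2 and 3. RefSeq also lists a pseudogene of this gene, Slc30a9-ps1, and whether the probe reads it too was not tested.

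Slc30a3, best known in mice as the transporter that fills synaptic vesicles of glutamatergic neurons with zinc, had 124 ± 13.0, 132 ± 27.1, 100.4 ± 17.3 and 59.4 ± 6.96 units. Each ± is the mean scanner error of the Slc30a3 spots and not the error of their average. Slc30a3 is the member with the most repeated measurement, since its probe is spotted 10 times on each array. All 10 spots were well above background on replicate 1, and all 9 spots used were so on replicates 3 and 4, against 6 of 9 on replicate 2. The spots ran between 112 and 143 units on replicate 1, between 87.6 and 236 on replicate 2, between 79.9 and 134 on replicate 3 and between 48.2 and 70.9 on replicate 4. On the log2 scale their SD was 0.12, 0.49, 0.25 and 0.18, where the median of the 1350 probes with 10 spots was 0.11, 0.11, 0.15 and 0.18. The SD of the Slc30a3 spots thus stood above that median on replicates 2 and 3 and near it on replicates 1 and 4. Those probes were not matched for signal, so the scatter is not called unusual. Its signal was 35.6 and 15.8 times the dimmest spike-in on replicates 1 and 4, and 0.24 and 0.87 times on replicates 2 and 3.

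**Figure D1:**
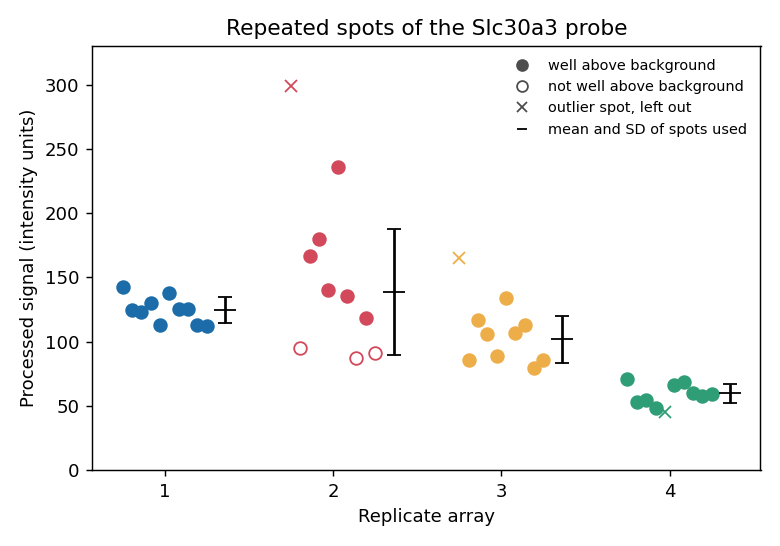
Processed signal (intensity units) of each of the 10 spots of the Slc30a3 probe on the 4 replicate arrays, with the mean and SD of the spots used beside them. Filled points are well above background, open points are not, and crosses are outlier spots left out, at 299, 165 and 45.0 units on replicates 2, 3 and 4.

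Slc30a3 was the detected member whose best known site of action is not the macrophage, so markers of that site are given beside it. Of 8 presynaptic genes, listed as synaptic vesicle markers, Stx1a passed the limit on all 4 arrays. The other 7, Syp, Syt1, Syn1, Snap25, Slc17a6, Slc17a7 and Slc32a1, passed on neither replicate 1 nor replicate 4, and Snap25 and Slc32a1 passed on no array. Among all named genes, 42.4% passed on all 4 arrays, 45.9% on replicates 1 and 4, and 6.46% on no array. Missing replicates 1 and 4 was thus common, and with 8 markers nothing about Slc30a3 is read from this list.

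Slc30a2, a vesicle transporter that in humans and mice supplies zinc to milk and in rodents is found in pancreatic acinar cells, had 3.83 ± 3.84, 411 ± 47.2, 181 ± 23.8 and 8.03 ± 4.84 units on replicates 1 to 4. It passed the limit on replicates 2 and 3 only. Before the software's lower bound was applied, its background-subtracted signal was 1.35, 401, 154 and 5.76 units. On replicates 2 and 3 it stood at 0.74 and 1.56 times the dimmest spike-in, so a spike-in present in trace amount gave a similar signal there. Slc30a10, the manganese exporter, passed the limit on the same arrays. Its processed signals were 3.89 ± 3.90, 416 ± 48.0, 186 ± 24.4 and 4.15 ± 4.17 units, those of replicates 1 and 4 being placeholders. The background-subtracted signals were 0.64, 391, 155 and 1.49 units. Slc30a10 stood at 1.11, 0.75, 1.61 and 1.11 times the dimmest spike-in on replicates 1 to 4.

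Slc30a4, the transporter whose loss in the lethal milk mouse leaves milk short of zinc, had 3.22 ± 3.23, 65.4 ± 22.2, 11.4 ± 11.5 and 2.80 ± 2.81 processed units. On replicates 1, 3 and 4 its background-subtracted signal was below 0, at -2.57, -10.7 and -5.71 units, and on replicate 2 it was 69.2 units. Slc30a4 stood at 0.92, 0.12, 0.099 and 0.75 times the dimmest spike-in on replicates 1 to 4. The processed values on replicates 1, 3 and 4 are placeholders. Slc30a4 is the only one of the 8 members that stayed below the detection limit on both arrays with a raised floor as well. For these 3 genes the lowest signal of any probe well above background, 15.0 units on replicate 1 and 13.8 on replicate 4, is the bound under which they lay. On replicates 2 and 3 the corresponding bound for Slc30a4 was 96.3 and 56.6 units. A probe can fail to read its transcript, so this bounds the signal and not the number of transcripts.

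**Figure D2:**
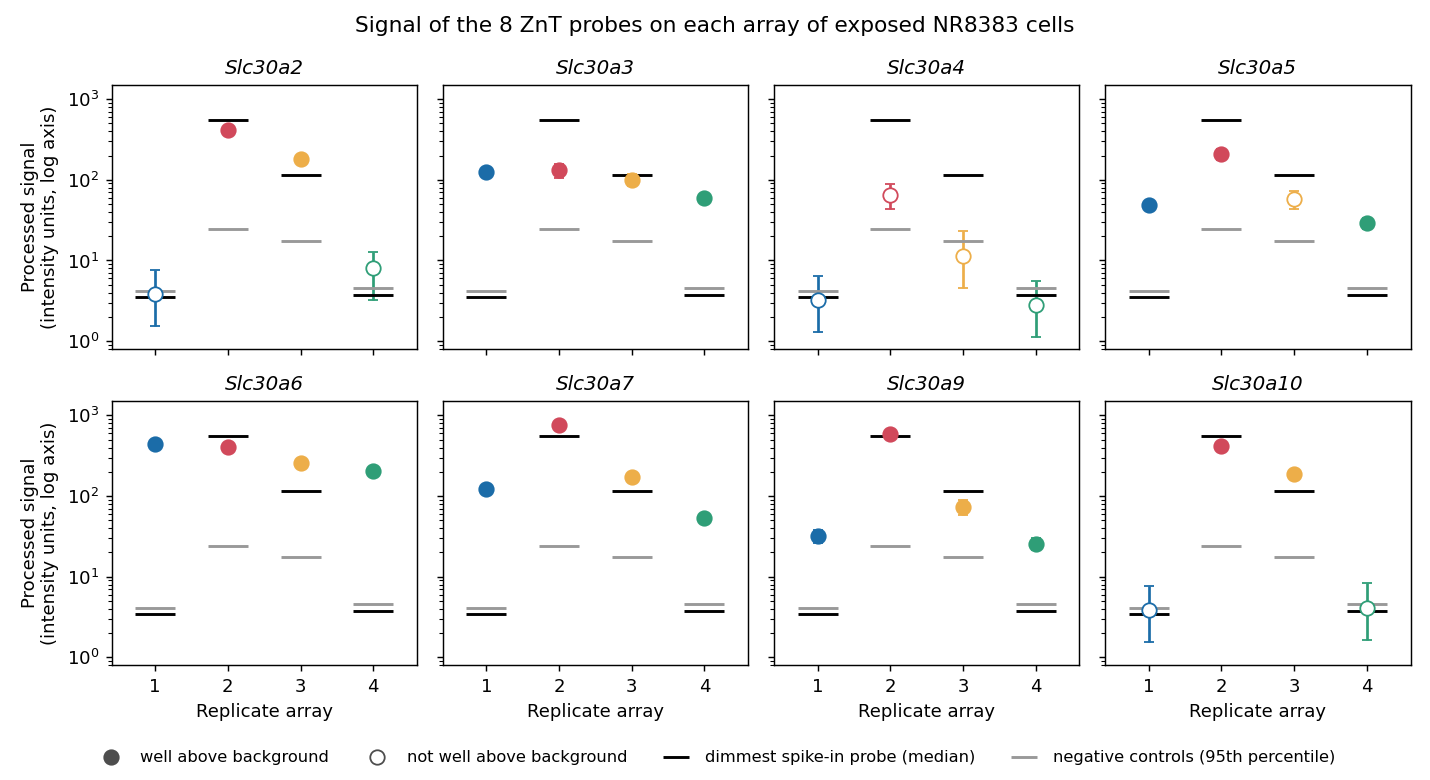
Processed signal (intensity units, log axis) of the 8 ZnT probes on replicates 1 to 4, with the scanner error in the same units as bars. Bars are hidden where smaller than the point, and lower bars are shortened where the error comes near the signal. Black lines are the median of the dimmest spike-in and grey lines the 95th percentile of the negative controls. Filled points are well above background; Slc30a3, Slc30a6, Slc30a7 and Slc30a9 are filled on all 4 arrays, and Slc30a4 on none.

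Slc30a1, the plasma membrane exporter and a target of MTF1, was well above background on all 4 arrays, with 971 ± 97.1, 1151 ± 117, 556 ± 57.2 and 616 ± 61.7 units. It exceeded the dimmest spike-in by 278, 2.08, 4.82 and 164 times on replicates 1 to 4. Signals of different probes are not set against each other, since each probe binds with its own strength.

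The arrays were next compared with each other for each detected member, using the 500 gene probes nearest to it in signal on replicate 1 as the background. Each ± is a scanner error, which does not measure variation between cultures. For Slc30a3 it comes from the mean error of single spots and not from the error of their average. On replicate 2 relative to replicate 1, the log2 signal of Slc30a3 differed by 0.09 ± 0.34 (scanner error), while its neighbours differed by a median of 1.73 (quartiles 0.85 to 2.54). Slc30a6 differed by -0.13 ± 0.22, against a median of 0.38 (quartiles -0.10 to 0.94). Slc30a5 differed by 2.11 ± 0.28, against 3.16 (quartiles 2.20 to 3.90). These 3 members lay below the lower quartile of their neighbours, by less than the scanner error for Slc30a5 and Slc30a6. Slc30a7 differed by 2.63 ± 0.21, against 1.73 (quartiles 0.89 to 2.54), and Slc30a9 by 4.18 ± 0.29, against 3.86 (quartiles 2.85 to 4.68). Slc30a7 lay above the upper quartile by less than the scanner error, and Slc30a9 lay between the quartiles. The log2 ratio of replicate 2 to replicate 1 was thus not the same for all members, and that of Slc30a9, the highest of the 5, was usual for a probe so dim on replicate 1. On replicate 3 relative to replicate 1, all 5 detected members lay between the quartiles of their neighbours. Slc30a3 differed there by -0.31 ± 0.29 (quartiles -0.62 to 0.60), and Slc30a7 by 0.47 ± 0.23 (quartiles -0.61 to 0.62). Slc30a3 thus lay below the lower quartile of its neighbours on replicate 2 and not on replicate 3, the other array with a raised floor. Lying outside the quartiles is common among all probes by construction. The Slc30a3 spots on replicate 2 also had a log2 SD of 0.49, where the median of probes with 10 spots was 0.11. Nothing particular to Slc30a3 is therefore read from this contrast.

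Replicates 1 and 4 gave a smoother picture. On replicate 4 relative to replicate 1, Slc30a3, Slc30a6 and Slc30a7 differed by -1.06 ± 0.23, -1.09 ± 0.21 and -1.18 ± 0.22 log2 units, where the medians of their neighbours were -0.95, -0.94 and -0.95. Slc30a5 differed by -0.73 ± 0.29, against -1.03 (quartiles -1.41 to -0.69). Slc30a9 differed by -0.33 ± 0.35, against -1.15 (quartiles -1.69 to -0.69), and was the 1 detected member outside the quartiles of its neighbours on this pair of arrays, by about its scanner error.

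**Figure D3:**
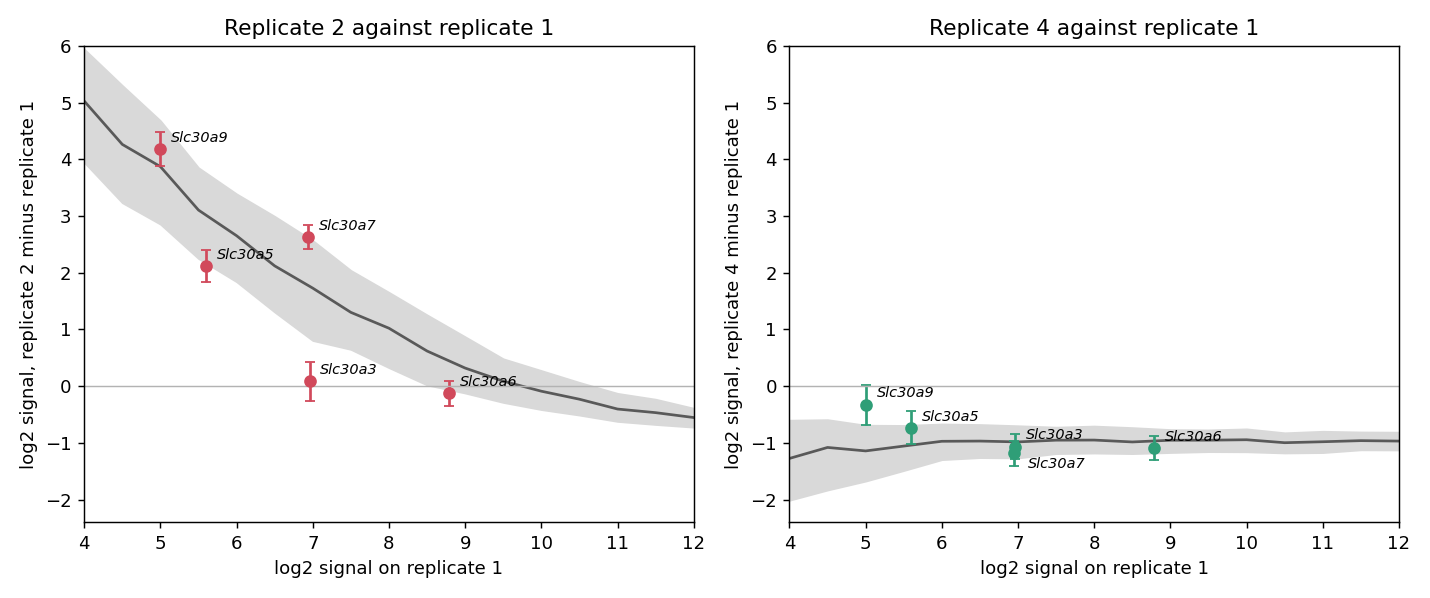
Difference in log2 signal between replicate 2 and replicate 1 (left) and between replicate 4 and replicate 1 (right), plotted against the log2 signal on replicate 1 for the 5 members detected on replicates 1 and 4 (points, scanner error as bars). The line is the running median of all gene probes and the band its quartiles. The median falls with signal on the left and stays near -1 on the right. On the left Slc30a3, Slc30a5 and Slc30a6 lie below the band and Slc30a7 above it, all but Slc30a3 by less than the scanner error. On the right Slc30a9 lies above the band.

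Levels on a common scale were taken as the log2 processed signal minus the 75th percentile of the same array. Slc30a6 had levels of 2.32, -1.07, 0.22 and 2.20 on replicates 1 to 4, a mean of 0.92 ± 1.64 (SD, n = 4). Slc30a3 averaged -0.74 ± 1.50, Slc30a5 -1.36 ± 0.71, Slc30a7 0.05 ± 0.38 and Slc30a9 -1.11 ± 0.50 (SD, n = 4 each). The Slc30a5 mean includes replicate 3, where its probe was not well above background. Without replicate 2 the SD of Slc30a3 was 0.91. The median SD of the 12899 probes detected on all arrays was 1.47. On this scale Slc30a6 and Slc30a3 spread most among the detected members and Slc30a7 and Slc30a9 least.

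That order turned round under 2 of the scalings. With the 3 brightest spike-ins set equal, the SD was 0.54 for Slc30a6 and 0.55 for Slc30a3, against 1.73 for Slc30a7 and 2.23 for Slc30a9, and the median of the same 12899 probes was 0.85. With the 75th percentile taken over probes detected on all arrays, the SD was 0.18 for Slc30a6, 0.37 for Slc30a3, 1.33 for Slc30a7 and 1.86 for Slc30a9, and the median was 0.47. Quantile normalization kept the first order, with SDs of 1.79 for Slc30a6, 1.96 for Slc30a3, 0.59 for Slc30a7 and 0.99 for Slc30a9. Normexp background correction did so too, with 1.16, 1.09, 0.30 and 0.31 for the same genes. Since the scalings differ, no member is called stable or variable between cultures. On replicates 1 and 4 alone, the 75th percentile scale gave level differences of 0.09 for Slc30a3, -0.24 for Slc30a5, 0.12 for Slc30a6, 0.21 for Slc30a7 and -0.64 for Slc30a9 (replicate 1 minus replicate 4), where the median size of the difference over all detected probes was 0.21.

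**Figure D4:**
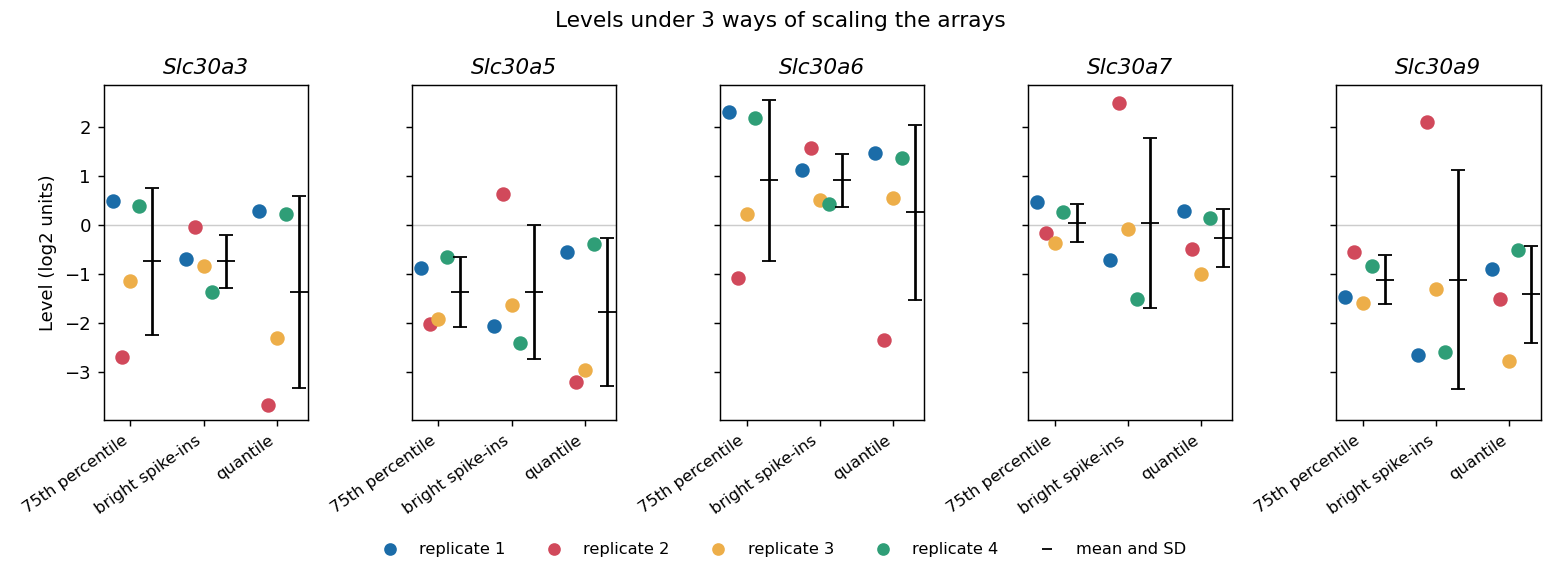
Levels (log2 units) of the 5 members detected on replicates 1 and 4, each point 1 array, under 3 scalings, with mean and SD beside them (n = 4). Slc30a6 spreads with an SD of 1.64 under the 75th percentile and 0.54 under the spike-ins, and Slc30a9 with 0.50 and 2.23, while the quantile SDs are 1.79 and 0.99.

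The other genes of zinc handling were read from the same arrays. Of 12 measured ZIP importers, 8 were well above background on all 4 arrays and 9 on replicates 1 and 4. Slc39a5, Slc39a12 and Slc39a14 missed replicate 1 or replicate 4. Of 5 measured genes of the metallothionein group, Mt1 and Mt2A were well above background on all 4 arrays, Mt3 and Mt4 only on replicates 2 and 3, and Mtf1 on replicates 1 and 2. Of 6 genes that carry manganese, Atp2c1, Tmem165, Slc11a1 and Slc11a2 were well above background on all 4 arrays, while Slc39a8 missed replicate 3 and Slc39a14 replicate 4. Slc30a10, the exporter for that metal, was so on neither replicate 1 nor replicate 4. These lists are small, and nothing particular to them is read from the counts.

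Markers of other tissues and cell types were called more often on replicates 2 and 3 than on replicates 1 and 4. All named genes showed the same, at 91.5% and 75.3% against 52.2% and 46.2%. Of 10 exocrine gland genes, Csn1s1, Cpa1, Ctrb1 and Cela1 were well above background on all 4 arrays, like 42.4% of all named genes. On replicate 2, 9 were so. Of 8 hepatocyte genes, 8 and 7 passed the limit on replicates 2 and 3, against 1 and 0 on replicates 1 and 4. Of 8 lung epithelial genes, 7 and 6 passed on replicates 2 and 3, and 0 on replicates 1 and 4. Of 5 measured T and B cell genes, Cd3d alone passed on replicate 1 and 0 on replicate 4, and of 6 fibroblast genes Dcn alone passed on both. Slc30a2 and Slc30a10 were called on the same arrays as many of these genes, and as 27.7% of all named genes. Whether the raised floor bears on their signal was not tested.

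**Figure D5:**
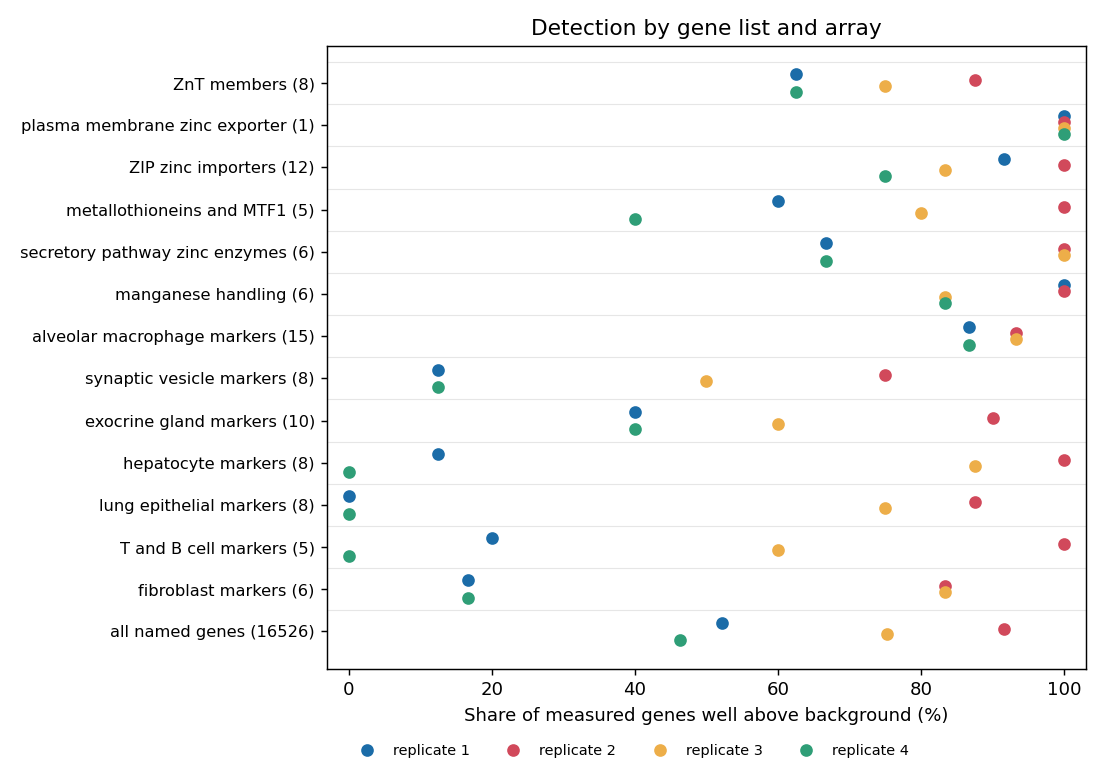
Share (%) of the measured genes of each list that were well above background on replicates 1, 2, 3 and 4 (points), with the number measured in brackets. For all named genes the shares are 52.2%, 91.5%, 75.3% and 46.2%, and the ZnT members have 5, 7, 6 and 5 of 8.

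Other limits of detection moved the count on all 4 arrays more than that on replicates 1 and 4. By the software's flag for a positive and significant signal, 5 members passed on all 4 arrays and 5 on replicates 1 and 4, against 59.8% and 61.0% of all named genes. With the 95th percentile of the negative controls as the limit, 5 and 5 passed, against 59.3% and 60.7%. With the dimmest spike-in plus 3 SD, 5 members passed on replicates 1 and 4, against 52.4% of all named genes, and none on all 4 arrays, against 14.8%. In each case the 5 members were Slc30a3, Slc30a5, Slc30a6, Slc30a7 and Slc30a9.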

How the data were processed

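Total RNA was labelled with Cy3 and hybridised to 4 arrays. The deposited intensity values were read with Agilent Feature Extraction 11.0.1.1, per the file headers, which also name the array design's rat build rn4 and a one-colour protocol. The software subtracts background within an array. The authors' deposited value table repeats, spot by spot, the median pixel intensity in the scanner files. Normalization between arrays is not given in the sources used here.

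Here the log2 of the deposited processed signal was averaged over a probe's spots without outlier spots, and the 75th percentile of the array was subtracted. Each level is therefore a log2 value relative to its own array. Of 45598 gene probes, 213 had no usable spot on some array, and 21023 of the others were named by unversioned RefSeq accession; other probes were not named, and can also read these genes. A probe was called well above background when a share over 0.5 of its spots used carried that flag, and a gene when any probe was. The 8 members, all probes of each, and counts of other lists are reported, with names where 5 or fewer genes are concerned. The members and lists were chosen with earlier results of these data known. The design holds 1 group, so no test between groups was made. The number of arrays limits precision. Alternatives changed the detection limit, the probe rule, outlier spots, scaling, quantile normalization and normexp (limma 3.58.1, R 4.3.3, offset 50), or left out 1 replicate. Scripts ran in Python 3.11.15 and were tested on simulated data. Probe sequences and proteins were not used here.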

Additional observations from a re-analysis of the deposited data

How the results depend on the processing

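With the dimmest spike-in plus 3 SD as the limit, 0 of the 8 members passed on all 4 arrays, in place of 4. On replicates 1 and 4, 5 passed under every limit, probe rule and outlier setting tried. The probe rules could not change the counts, since each member has 1 probe. Keeping outlier spots could act only on Slc30a3, the 1 member with repeated spots. Leaving out 1 replicate gave between 4 and 5 members on the other arrays. The 5 came without replicate 3 and included Slc30a5. Fewer arrays can only keep or raise this count, so leaving out 1 replicate does not test it. On replicates 1 and 4 alone, the mean level was 2.26 for Slc30a6 in place of 0.92 and 0.44 for Slc30a3 in place of -0.74. The spike-in and detected-probe scalings keep a probe's mean by construction, and leaving out 1 of 4 arrays cannot move it by a whole SD, so neither tests the means. The SD moved by over 1.5 times in 14 of 30 settings, and in 1 of 20 without 1 replicate, Slc30a3 without replicate 2 (0.91 in place of 1.50). The raised floor of replicates 2 and 3 limits any value there near or below the dimmest spike-in. No paired analysis was possible because all samples belong to 1 group.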
